A study of Homo sapiens with 45 samples.

Results

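Of the 45 arrays of the series, 7 held the comparison described here: 4 arrays of siHMGA1+siTFDP1 (replicates 1 to 4) against 3 arrays of siHMGA1+siFOXM1 (replicates 1 to 3). Arrays were assigned to the groups by their titles. All were made from SUDHL6, an established human diffuse large B-cell lymphoma line of germinal-centre type, nucleofected with SmartPool siRNA (a mixture of siRNAs against 1 transcript) and harvested after 20 hours. All 7 are labelled with siHMGA1, so by label the groups differed in the second silenced factor, TFDP1 or FOXM1. Replicate 1 of siHMGA1+siTFDP1, had HMGA1 at the level of the controls. The labels give 80 pmol of siRNA pool, and its division within a pair is not given in the sources. Set beside them were siTFDP1 alone and siFOXM1 alone (3 arrays each), siHMGA1 alone (3 arrays), the non-target pool siNT4 alone (4 arrays) and the doubled non-target control siNT4+siNT4 (2 arrays), all of the same line and time and all without a letter A in their titles. The series concerns regulators that drive follicular lymphoma into its aggressive, diffuse large-cell form, and the comparison asks how the transcript profile differs when HMGA1 is silenced together with one partner or with the other.

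HMGA1 is an architectural chromatin protein that binds AT-rich DNA and helps transcription factors assemble at promoters and enhancers. TFDP1 encodes DP1, the dimer partner through which most E2F factors bind DNA and switch on genes of the G1/S transition and of DNA replication. FOXM1 is a forkhead factor that acts later in the cycle, on genes of G2 and mitosis, with promoters that commonly carry a CHR element.

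The values are the authors' log2 expression levels, 1 probe per gene. A gene was tested where its probe lay at least 0.5 above the array median on 3 or more arrays, which left 8270 genes. Differences are siHMGA1+siTFDP1 minus siHMGA1+siFOXM1 on the log2 scale, fitted with limma on 44 arrays, with p-values adjusted over all genes by the Benjamini-Hochberg method and a threshold of 0.05. Markers of the line were present: 6 of 8 B-cell markers lay above background, with a mean level of 12.87 to 12.97 on the siHMGA1+siTFDP1 arrays and of 12.95 to 13.00 on the siHMGA1+siFOXM1 arrays. Of the markers of other cells, 1 of 10 for T cells (LCK), 2 of 10 for myeloid cells (CD14 and FCGR3A) and 1 of 10 for stromal and epithelial cells (VIM) lay above background, and the other members with a probe did not reach the background line on 3 arrays. In bulk RNA, fewer cells of a type and less RNA per cell cannot be told apart.

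Features of the arrays themselves bear on every result. The library labelled siHMGA1+siTFDP1 replicate 1 went against its label for HMGA1, as described next, so the differences between the pairs and the list medians are given with and without it. Values against the doubled control include it unless stated. For the description the samples were also cut into runs of 12 consecutive ones in the submitters' order of deposition. Among the 7 arrays, those of run 1 correlated with each other at 0.988 to 0.991 and with those of later runs at 0.985 to 0.992, and the later ones among themselves at 0.994 to 0.996. Run 1 held siHMGA1+siFOXM1 replicates 1 and 2 but only replicate 1 of siHMGA1+siTFDP1, run 2 held siHMGA1+siTFDP1 replicate 2, and run 3 held siHMGA1+siFOXM1 replicate 3 with siHMGA1+siTFDP1 replicates 3 and 4. No label names such a run: it is a cut of the deposition order made here, and it is called neither a chip nor a day. No label states whether replicates came from separate cultures, so the p-values measure only the spread between arrays, which may be technical. That spread was pooled for each gene over all groups in the fit. The SEs, intervals and p-values thus do not rest on the spread of these 7 arrays alone.

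The silenced genes themselves were read first. HMGA1 lay at 11.27, 10.70, 10.60 and 10.58 on siHMGA1+siTFDP1 replicates 1, 2, 3 and 4, and at 10.13, 10.28 and 10.20 on siHMGA1+siFOXM1 replicates 1, 2 and 3. It lay at 11.25 and 11.28 in the doubled control and at 10.16, 9.73 and 9.73 under siHMGA1 alone. The groups did not overlap: every siHMGA1+siTFDP1 array had more HMGA1 than every siHMGA1+siFOXM1 array, and replicate 1 had as much as the controls. HMGA1, silenced in both arms by design, was thus 0.58 higher with the TFDP1 partner (SE 0.12, 95% interval 0.34 to 0.83, limma adjusted p = 0.0439). Without the library labelled siHMGA1+siTFDP1 replicate 1 the difference was 0.42 (SE 0.11, adjusted p = 0.0722), past the threshold no longer, though the remaining arrays still did not overlap.

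TFDP1 lay at 10.41, 10.94, 11.06 and 10.71 on siHMGA1+siTFDP1 replicates 1, 2, 3 and 4 and at 11.39, 11.51 and 11.29 on the siHMGA1+siFOXM1 arrays. siTFDP1 alone gave 10.18, 10.31 and 10.35, and the doubled control 11.46 and 11.36. Here replicate 1 was the lowest of the 4, close to the single silencing, while the other 3 lay between the single silencing and the control. TFDP1 was 0.62 lower with the TFDP1 partner (SE 0.10, 95% interval -0.82 to -0.42, adjusted p = 0.00196) and 0.50 lower without replicate 1 (adjusted p = 0.0247). A second probe of TFDP1 above background gave -0.48 and, without replicate 1, -0.37.

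FOXM1, the target that only the other arm carried, did not pass the test between the pairs. It lay at 8.59, 8.50, 8.50 and 8.29 on siHMGA1+siTFDP1 replicates 1, 2, 3 and 4 and at 8.31, 8.26 and 8.34 on the siHMGA1+siFOXM1 arrays. The ranges overlapped through siHMGA1+siTFDP1 replicate 4, which was as low as the siFOXM1-carrying arrays. The difference was 0.17 (SE 0.09, 95% interval -0.010 to 0.34, adjusted p = 0.502), and 0.13 without replicate 1 (adjusted p = 0.498). A second, dimmer probe of FOXM1 had the opposite sign, -0.12. siFOXM1 alone gave 8.36, 8.26 and 8.10 against 8.53, 8.56, 8.51 and 8.46 with siNT4 alone, and the doubled control gave 8.59 and 8.79.

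**Figure D1:**
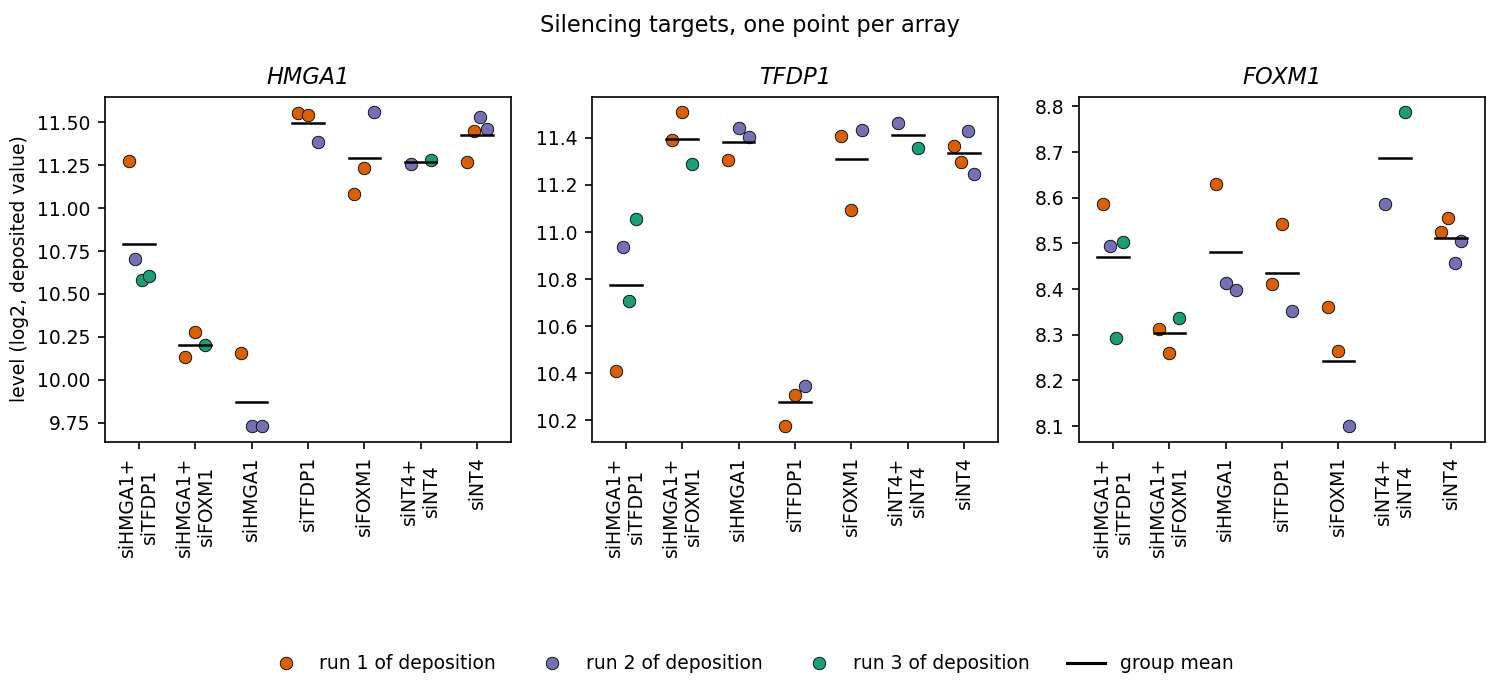
Level of the 3 silenced genes (log2, deposited value) on each array, by group, with a point per array coloured by run of deposition and a line at the group mean. The siHMGA1+siTFDP1 array of run 1 sits with the controls for HMGA1 (11.27) and nearest to siTFDP1 alone for TFDP1 (10.41), and the FOXM1 levels of the pairs overlap. The level axes do not start at 0 and differ between the panels.

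Each pair was also set against the same 2 doubled-control arrays, so the following values share their control. HMGA1 fell by 1.06 in siHMGA1+siFOXM1 (SE 0.15, adjusted p = 4.7e-05), and in siHMGA1+siTFDP1 it differed by -0.48 (SE 0.14, 95% interval -0.76 to -0.20), which did not pass the test (adjusted p = 0.999). Without replicate 1 it was -0.64, just short of the threshold (adjusted p = 0.0526). TFDP1 fell by 0.63 in siHMGA1+siTFDP1 (SE 0.11, adjusted p = 0.0147) and differed by -0.014 in siHMGA1+siFOXM1 (adjusted p = 0.984). FOXM1 differed by -0.22 and -0.38 in turn (adjusted p = 0.999 and 0.390). These target genes were the only calls: 1 of 8270 genes (0.0121%) in each pair against the control, with 276 and 699 genes at an unadjusted p under 0.05 (3.34% and 8.45%). The TFDP1 call was lost without siHMGA1+siTFDP1 replicate 1 (-0.51, adjusted p = 0.075), without its replicate 4 and without either control array. Without siHMGA1+siFOXM1 replicate 3 the other comparison called 60 genes. With run as a block, 3 genes were called in siHMGA1+siTFDP1 (0.0363%) and 2 in siHMGA1+siFOXM1 (0.0242%). Besides the targets these were SMAP2, an Arf GTPase-activating protein of vesicle traffic, at 0.52 (adjusted p = 0.0103) and 0.55 (adjusted p = 0.0217), and in siHMGA1+siTFDP1 PFKFB3, which makes the allosteric activator of glycolysis, at 0.58 (adjusted p = 0.0187). Without the block SMAP2 stood at 0.48 and 0.45 and PFKFB3 at 0.52 and 0.26, none past the threshold.

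Between the pairs, 4 of 8270 genes passed the test (0.0484%). HMGA1 and EPHB4 were higher with the TFDP1 partner (0.0242%), and TFDP1 and EPB41L2 were lower (0.0242%). EPB41L2 entered the test through the siHMGA1+siFOXM1 arrays, where it was high, and lay at background on all 4 siHMGA1+siTFDP1 arrays. At an unadjusted p under 0.05 there were 851 genes (10.3%). These calls rest on the spread pooled over all groups. With only the arrays of the compared groups in the fit, 0 genes passed (484 at an unadjusted p under 0.05). Within siHMGA1+siTFDP1 and siHMGA1+siFOXM1 the standard deviations were 0.33 and 0.072 for HMGA1 and 0.28 and 0.11 for TFDP1. They were 0.16 and 0.31 for EPHB4 and 0.072 and 0.30 for EPB41L2. Leaving out the library labelled siHMGA1+siTFDP1 replicate 1 gave 15 genes (0.181%), leaving out siHMGA1+siFOXM1 replicate 3 gave 267, and leaving out siHMGA1+siFOXM1 replicate 2 gave 0 (389 at an unadjusted p under 0.05). Leaving out siHMGA1+siFOXM1 replicate 1 or siHMGA1+siTFDP1 replicate 2 gave 1 gene each, which was TFDP1. With run as a block 3 genes were called (0.0363%), TFDP1, HMGA1 and EPB41L2, and with the block and without replicate 1 TFDP1 alone (0.0121%). Within run 1, 18 genes were called. There 1 array faced 2, the lone array was assumed to vary like the other groups, and it is the library labelled siHMGA1+siTFDP1 replicate 1, whose HMGA1 goes against its label. HMGA1 itself differed there by 1.07. Within run 3, where 2 arrays faced 1, there were 0 (159 at an unadjusted p under 0.05). The median SE over genes was 0.107, and the median interval, not adjusted for the number of genes, reached 0.216 to either side. Changes smaller than that could not be told from 0 for a typical gene even before adjustment. The adjusted test was stricter, and the largest absolute change among genes that did not pass it was 0.68. A gene that was not called is thus not shown to be unchanged.

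EPHB4, a receptor tyrosine kinase that binds ephrin-B2 on neighbouring cells, lay at 7.75, 8.01, 8.12 and 7.90 on siHMGA1+siTFDP1 replicates 1, 2, 3 and 4. On siHMGA1+siFOXM1 it lay at 7.25, 7.18 and 7.74, and in the doubled control at 7.90 and 7.79. The siHMGA1+siTFDP1 arrays thus lay near the controls, 2 of the 3 siHMGA1+siFOXM1 arrays were too dim to pass the background line, and their replicate 3, of a later run, touched the lowest siHMGA1+siTFDP1 array. The difference was 0.55 (SE 0.11, adjusted p = 0.0439) and 0.62 without replicate 1 (adjusted p = 0.0247). Its size was not measured, since those 2 siHMGA1+siFOXM1 arrays lay below the background line. With run as a block the difference was 0.50 and missed the threshold (adjusted p = 0.088), and within runs 1 and 3 it was 0.53 and 0.27. The part that run played in it was not tested beyond these values. siTFDP1 alone and siFOXM1 alone differed by -0.17, not past the test (adjusted p = 0.881).

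EPB41L2 encodes a membrane-skeleton protein that ties membrane proteins to spectrin and actin. It lay at 7.004, 6.84, 6.98 and 6.97 on siHMGA1+siTFDP1 replicates 1, 2, 3 and 4, close to the array median and so to the floor of the scale. On siHMGA1+siFOXM1 it lay at 7.64, 7.61 and 7.11, and in the doubled control at 7.29 and 7.23. Only the replicates of run 1 stood clear of background: the probe passed the line on 4 of the 44 arrays, 2 of them siHMGA1+siFOXM1, and it entered the test through them. The siHMGA1+siTFDP1 values are thus background, and the difference, -0.50, is no measured fold (SE 0.10, adjusted p = 0.0242). It was -0.52 without replicate 1 (adjusted p = 0.0279) and -0.44 with run as a block (adjusted p = 0.0406). Within runs 1 and 3 it was -0.62 and -0.13. A second probe, never above background, gave -0.12. EPB41L2 was also the only gene past the test for a pair difference that departed from that between siTFDP1 alone and siFOXM1 alone (0.29). The departure was -0.79 (SE 0.14, adjusted p = 0.0121), called for 1 of 8270 genes (0.0121%, with 6.53% at an unadjusted p under 0.05). Its probe passed the background line on 0 arrays of siTFDP1 alone and 0 of siFOXM1 alone. The 0.29 thus lies within background, and the -0.79 is no measured size. That call was lost without siHMGA1+siTFDP1 replicate 2, without siHMGA1+siFOXM1 replicate 1 or 2, without siTFDP1 replicate 1 and without siFOXM1 replicate 1, each of which left 0 genes. Without siTFDP1 replicate 2, siFOXM1 replicate 2 or siHMGA1+siFOXM1 replicate 3 there were 2, 3 and 15 genes.

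The promoters of these called genes that were not silencing targets are shown because they are what a reader would inspect for E2F or CHR letters. They are RefSeq sequences of build GRCh38.p14, 250 bases before to 50 after the gene's start, both on the minus strand: EPHB4 at chr7:100827474-100827773 and EPB41L2 at chr6:131063196-131063495. Capitals mark matches on either strand to the E2F letters TTTGGCGC, TTTCCCGC, TTTCGCGC or TTTGCCGC, to the CHR letters TTTGAA, or to CCAAT, and no match overlaps another in the windows shown.
EPHB4: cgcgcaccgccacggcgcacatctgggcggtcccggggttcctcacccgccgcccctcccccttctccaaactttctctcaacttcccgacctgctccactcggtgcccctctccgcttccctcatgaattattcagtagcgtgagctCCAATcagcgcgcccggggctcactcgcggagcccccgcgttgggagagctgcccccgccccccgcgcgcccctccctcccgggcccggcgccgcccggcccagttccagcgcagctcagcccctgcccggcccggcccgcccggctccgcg
EPB41L2: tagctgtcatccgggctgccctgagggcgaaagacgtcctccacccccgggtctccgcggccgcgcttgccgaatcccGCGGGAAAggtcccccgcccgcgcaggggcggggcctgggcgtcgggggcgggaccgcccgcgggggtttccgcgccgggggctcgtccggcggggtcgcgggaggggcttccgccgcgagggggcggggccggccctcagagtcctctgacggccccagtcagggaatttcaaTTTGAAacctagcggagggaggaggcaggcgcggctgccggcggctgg
The EPHB4 window held 1 CCAAT match and the EPB41L2 window 1 E2F match and 1 CHR match. Of the 27305 promoters given, 3.325% held the E2F letters, 15.43% the CHR letters and 35.7% CCAAT. A match is a description of the letters only.

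**Figure D2:**
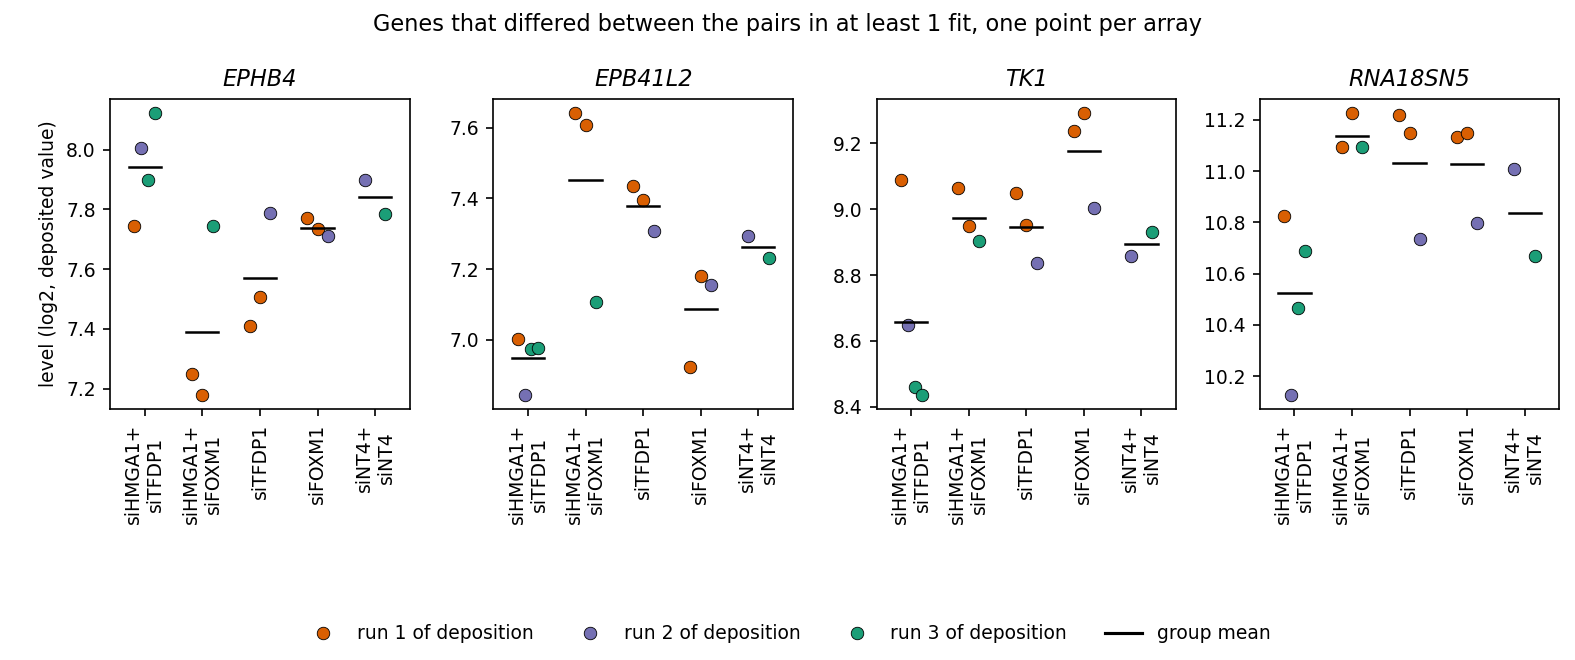
Levels (log2, deposited value) of EPHB4, EPB41L2, TK1 and RNA18SN5 on each array, by group, with a point per array coloured by run of deposition and a line at the group mean. For EPHB4 and EPB41L2 the siHMGA1+siFOXM1 array of run 3 lies toward the siHMGA1+siTFDP1 arrays (7.74 and 7.11), and for TK1 the siHMGA1+siTFDP1 array of run 1 (9.09) lies above the other 3. The axes do not start at 0 and differ between the panels.

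The genes next in order of p did not pass the threshold with all 7 arrays and are given as values. Of the 20 genes named for the leading places in either direction, 7 that were higher and 10 that were lower did not overlap between the groups. Over all genes 2.33% lay wholly higher and 2.85% wholly lower, and the leading genes were picked for this contrast, so nothing is read from that count. Among the higher ones DLEU2L, a non-coding transcript resembling DLEU2, lay at 7.46, 7.78, 7.53 and 7.39 on siHMGA1+siTFDP1 replicates 1, 2, 3 and 4 against 6.90, 6.87 and 7.22. All 3 siHMGA1+siFOXM1 values lay below the background line, which the probe passed on 14 of 44 arrays, so the size of its difference was not measured (adjusted p = 0.0558). SNORD3D, a U3 small nucleolar RNA that guides processing of ribosomal RNA, stood at 0.56, and RNASEH2B, a subunit of the nuclease that removes ribonucleotides from DNA, at 0.55. The level of RNASEH2B on siHMGA1+siFOXM1 replicate 3, 9.99, exceeded that on siHMGA1+siTFDP1 replicate 1, 9.81. The remaining ones ran from 0.37 for PURA, a single-stranded nucleic acid binding protein, to 0.52 for RPEL1. A dimmer probe of PURA gave 0.0043. PDP1, the phosphatase that activates pyruvate dehydrogenase, stood at 0.45. Its probe passed the background line on 1 of the 3 siHMGA1+siFOXM1 arrays, so the size of that difference was not measured. Without replicate 1 RNASEH2B stood at 0.61, PURA at 0.38, RPEL1 at 0.49 and PDP1 at 0.49.

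Among the lower ones RNA18SN5, an 18S ribosomal RNA locus with near-identical copies that a probe may not separate, lay at 10.82, 10.13, 10.69 and 10.47 on siHMGA1+siTFDP1 replicates 1, 2, 3 and 4. On siHMGA1+siFOXM1 it lay at 11.09, 11.23 and 11.10. The groups did not overlap, and the difference was -0.61 (adjusted p = 0.145), or -0.71 without replicate 1. RNA28SN5, a 28S locus looked up afterwards, stood at -0.42 (adjusted p = 0.232) and at -0.43 without replicate 1. How much ribosomal RNA the labelled material carried was not measured, and its part in these values was not tested. GABARAP, an ATG8-family protein of autophagosomes, stood at -0.61, BRK1, a subunit of the WAVE actin-regulating complex, at -0.43, DOCK2, a Rac activator of lymphocyte migration, at -0.32, and URM1, a ubiquitin-like modifier of transfer RNA thiolation, at -0.34. Without replicate 1 these 4 stood at -0.49, -0.51, -0.33 and -0.38 in turn. The GABARAP probe passed the background line on 1 of the 4 siHMGA1+siTFDP1 arrays. The size of its differences that involve those arrays was thus not measured. Against the doubled control, GABARAP differed by -0.14 in siHMGA1+siTFDP1 and 0.46 in siHMGA1+siFOXM1, BRK1 by 0.024 and 0.45, and SLX4IP, a partner of the SLX4 nuclease scaffold, by 0.085 and 0.51. None of these values against the control passed the test.

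**Figure D3:**
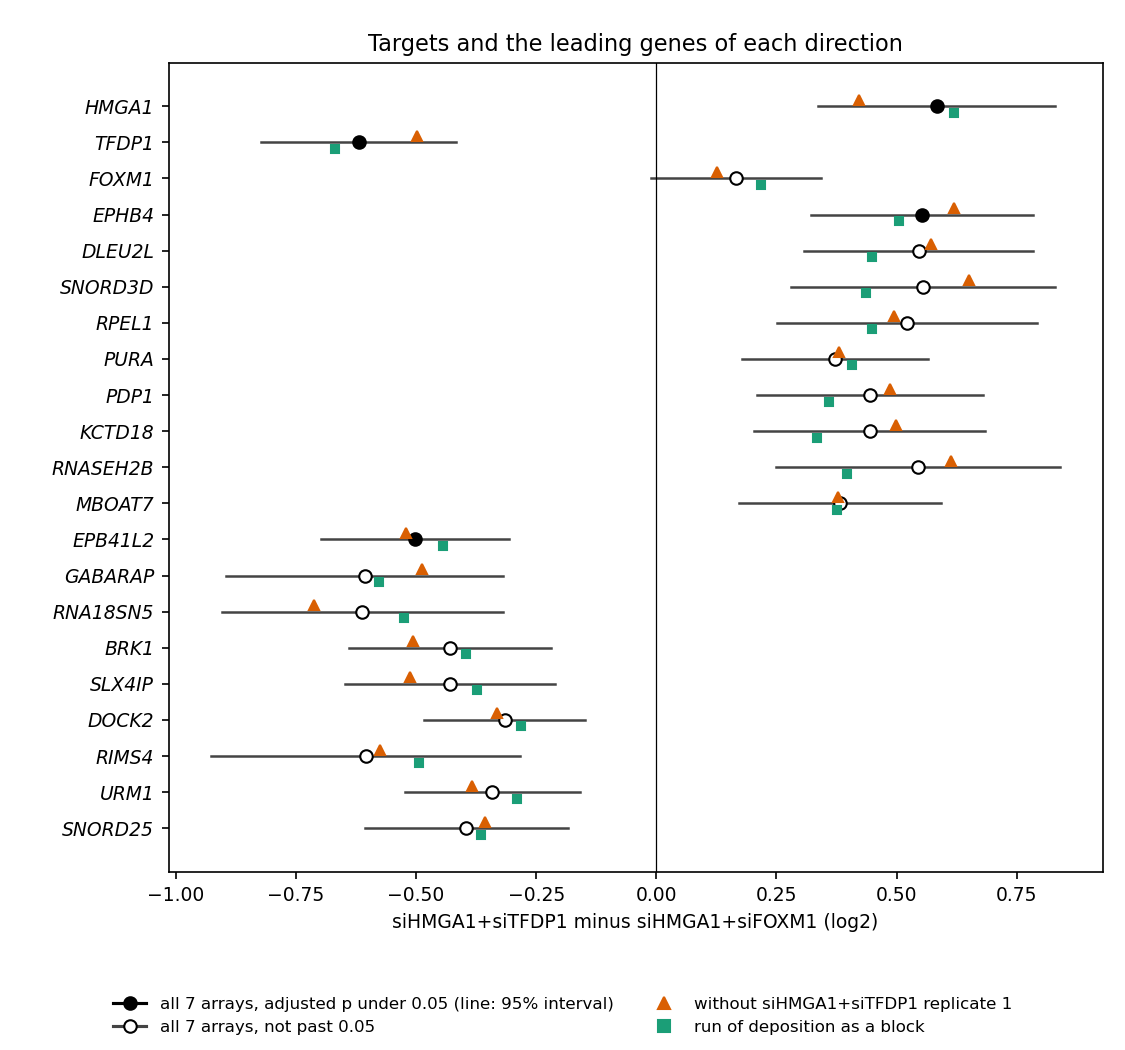
Difference between the pairs (siHMGA1+siTFDP1 minus siHMGA1+siFOXM1, log2) for the 3 targets and the leading genes in each direction. Circles give the fit with all 7 arrays and its 95% interval, filled where the adjusted p was under 0.05; triangles leave out siHMGA1+siTFDP1 replicate 1, and squares add run as a block. HMGA1, TFDP1, EPHB4 and EPB41L2 are filled, every plotted gene keeps its sign in the other fits, and TFDP1 moves from -0.62 to -0.50 and -0.67.

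Without the library labelled siHMGA1+siTFDP1 replicate 1, 3 genes were higher (0.0363%) and 12 lower (0.145%), and 3 of the 4 genes called with all arrays, EPB41L2, EPHB4 and TFDP1, were among them. At an unadjusted p under 0.05 there were 1487 genes (18%). This setting compares 3 arrays of later runs with 2 of run 1 and 1 of run 3. The cell-cycle members of the 15 were TK1 and FBXO5. TK1, the thymidine kinase of the S-phase salvage pathway, lay at 8.65, 8.44 and 8.46 on siHMGA1+siTFDP1 replicates 2, 3 and 4 against 9.06, 8.95 and 8.90, and at 9.09 on replicate 1. It was 0.46 lower without replicate 1 (adjusted p = 0.0279) and differed by -0.31 with it (adjusted p = 0.365). With run as a block TK1 differed by -0.21, and within runs 1 and 3 by 0.082 and -0.46. FBXO5, the EMI1 inhibitor of the anaphase-promoting complex, lay at 9.28, 9.38 and 9.24 on replicates 2, 3 and 4 against 9.87, 9.70 and 9.65, and at 9.61 on replicate 1. It was 0.44 lower without replicate 1 (adjusted p = 0.042) and differed by -0.36 with it (adjusted p = 0.232).

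The other lower genes of that fit included UQCRC1, a core subunit of respiratory complex III, at -0.53, RFXANK, a subunit of the factor that drives MHC class II promoters, at -0.60, and UBXN4, an endoplasmic reticulum protein of the degradation machinery, at -0.56. For UQCRC1 replicate 1 lay at 10.39 and replicates 2, 3 and 4 at 9.80, 9.83 and 9.74, against 10.33, 10.43 and 10.20 in siHMGA1+siFOXM1. ZNF317, TFPT, BRK1, SLX4IP and RNA18SN5 completed the lower ones beside the genes already named, and SNORD3D, at 0.65, and DLEU2L were higher. With run as a block and without replicate 1, none of these 15 but TFDP1 passed (-0.52, adjusted p = 0.0269). UBXN4, ZNF317, RFXANK, TFPT, FBXO5 and RNA28SN5 were named after their values were seen.

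The cell-cycle genes were described by lists chosen with earlier results of these data known. Of 47 listed G1/S genes of the E2F and DP type 39 were measured, and all 44 listed G2 and mitosis genes of the FOXM1 type were. With all 7 arrays no member of either list passed the limma test. At an unadjusted p under 0.05 the G1/S list held 0 higher and 4 lower members and the G2 and mitosis list 1 higher and 9 lower, where all genes gave 4.45% higher and 5.84% lower. In the G1/S list 28 of 39 members lay below 0, with a median of -0.066, and in the G2 and mitosis list 32 of 44, with a median of -0.11. Over all genes tested 4339 of 8270 lay below 0 (52.5%), with a median of -0.0090. Wholly lower without overlap were 4 members of the first and 5 of the second list, and wholly higher 0 and 0, beside 2.85% and 2.33% of all genes.

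Among the G1/S members FEN1, the flap endonuclease of Okazaki fragments, lay at 11.35, 11.04, 11.28 and 11.15 on siHMGA1+siTFDP1 replicates 1, 2, 3 and 4 against 11.66, 11.61 and 11.37, a difference of -0.34 (adjusted p = 0.275). The groups did not overlap, though replicate 1 came close to siHMGA1+siFOXM1 replicate 3, and a second, dimmer probe of FEN1 gave -0.058. GINS2, part of the replicative helicase, stood at -0.27, CCNE1, the G1/S cyclin, at -0.28, and POLA1, the primase-polymerase subunit, at -0.22. On the other side MCM4, a helicase subunit, stood at 0.21 and SLBP, the histone mRNA binding protein, at 0.22. Among the regulators of this pathway 23 of 28 listed E2F, DP, RB and cyclin-kinase genes were measured, with a median of -0.029. TFDP1 alone of them passed the test. The paralogue TFDP2 stood at -0.25, E2F2 at -0.15, E2F8, a repressor of the family, at -0.20, and the inhibitor CDKN1B at 0.28. A second, dimmer probe of CDKN1B gave -0.046, and -0.075 without replicate 1. Without replicate 1 FEN1 stood at -0.39, GINS2 at -0.35, CCNE1 at -0.25, POLA1 at -0.30, MCM4 at 0.29 and SLBP at 0.23. TFDP2 then stood at -0.17, E2F2 at -0.21, E2F8 at -0.16 and CDKN1B at 0.31, and the median of the 23 regulators was -0.025.

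Among the G2 and mitosis members UBE2C, the ubiquitin-conjugating enzyme of the anaphase-promoting complex, lay at 11.09, 10.86, 11.02 and 11.08 on siHMGA1+siTFDP1 replicates 1, 2, 3 and 4 against 11.27, 11.55 and 11.20, a difference of -0.33 (adjusted p = 0.232). Its arrays did not overlap, while a dimmer second probe of UBE2C gave 0.010. CDCA3, a trigger of mitotic entry, stood at -0.36, CDC20, the activator of that complex, at -0.25, AURKB, the kinase of the chromosomal passenger complex, at -0.26, and PLK1, the polo-like kinase, at -0.21. NEK2, the centrosome-splitting kinase, went the other way, at 0.36 (adjusted p = 0.366). A second, dimmer probe of NEK2, above background on 7 of the 44 arrays, had the opposite sign, -0.11, and -0.11 without replicate 1. Without replicate 1 UBE2C stood at -0.36, CDCA3 at -0.47, CDC20 at -0.28, AURKB at -0.35, PLK1 at -0.19 and NEK2 at 0.40. Against the shared doubled control NEK2 differed by -0.29 in siHMGA1+siTFDP1 and by -0.65 in siHMGA1+siFOXM1, neither past the test.

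The mean level of the G2 and mitosis list was 9.73 on siHMGA1+siTFDP1 replicate 1 and between 9.60 and 9.61 on replicates 2, 3 and 4. On siHMGA1+siFOXM1 replicates 1, 2 and 3 it was 9.79, 9.63 and 9.75, and in the doubled control 9.74 and 9.71. The groups overlapped through replicate 1 of siHMGA1+siTFDP1 and replicate 2 of siHMGA1+siFOXM1. The list's median difference was -0.16 without replicate 1, -0.094 with run as a block, 0.040 within run 1 (18 of 44 members below 0) and -0.16 within run 3 (39 of 44), so its sign turned in the run that holds replicate 1. For the G1/S list the medians under the same settings were -0.051, -0.067, -0.055 (22 of 39 below 0) and -0.033 (23 of 39). Beside the shared doubled control, the G2 and mitosis list had a median of -0.10 in siHMGA1+siTFDP1 (36 of 44 below 0) and of -0.00078 in siHMGA1+siFOXM1 (22 of 44), and the G1/S list of -0.047 (26 of 39) and 0.054 (15 of 39).

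**Figure D4:**
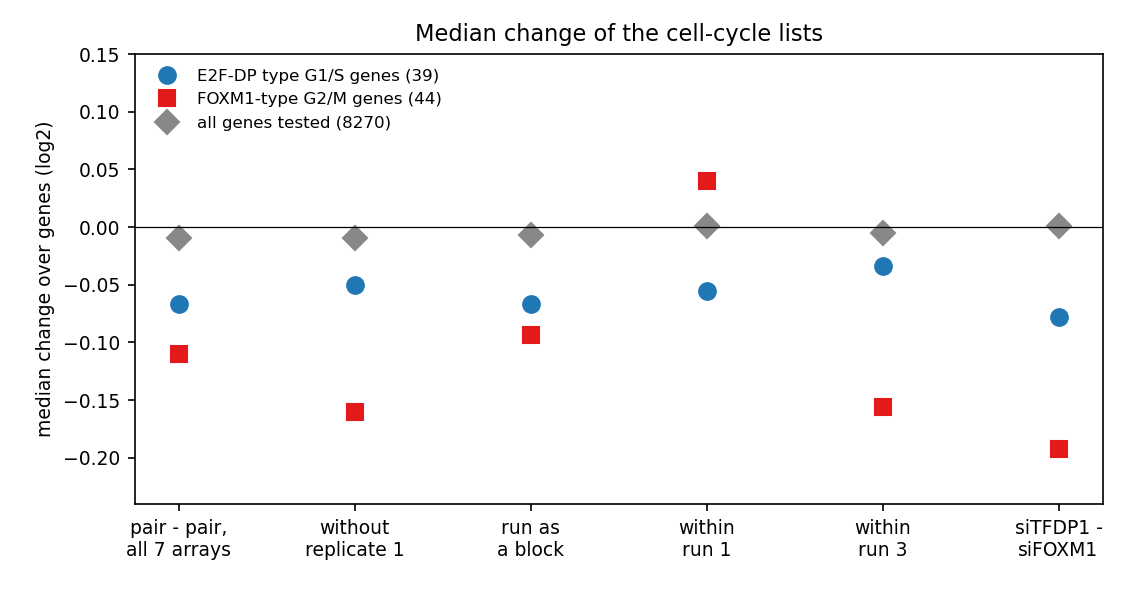
Median difference (log2) over the 39 measured G1/S genes, the 44 G2 and mitosis genes and all 8270 genes tested, for the pair comparison with all 7 arrays and under 4 other settings, and for siTFDP1 alone minus siFOXM1 alone. The G2 and mitosis median lies at -0.11 with all arrays, at 0.040 within run 1 and at -0.19 between the single silencings, while the median of all genes stays near 0.

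The same change of target without siHMGA1, siTFDP1 alone minus siFOXM1 alone, was measured on 6 arrays that neither pair uses, 4 of them of run 1 and 2 of run 2, evenly split between the groups. There 5 of 8270 genes passed (0.0605%), all lower with siTFDP1, and 558 genes had an unadjusted p under 0.05 (6.75%). TFDP1 fell by 1.03, TYMS, the thymidylate synthase of S phase, by 0.64, TOP2A, the topoisomerase of G2 and mitosis, by 0.53, BIRC5 (survivin) by 0.51 and STMN1 (stathmin, a microtubule destabiliser) by 0.50. Without siFOXM1 replicate 3 there were 31 genes, without siFOXM1 replicate 1 there were 2, and without siTFDP1 replicate 3 there was 1. BIRC5, STMN1, MELK and EZH2 were looked up in the pairs after their values were seen.

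Between the pairs these genes were closer together, but they were picked as the calls of the single comparison. A smaller difference on other arrays is likely from that choice alone, so nothing is read from it. TYMS lay at 10.63, 10.32, 10.35 and 10.36 on siHMGA1+siTFDP1 replicates 1, 2, 3 and 4 against 10.64, 10.52 and 10.66, overlapping through replicate 1, and differed by -0.20 (adjusted p = 0.543). TOP2A lay at 11.38, 11.40, 11.07 and 11.40 against 11.68, 11.53 and 11.45, wholly lower, and differed by -0.24 (adjusted p = 0.417). BIRC5 stood at -0.21 and STMN1 at -0.15, both past the test in the single silencings. Without replicate 1 TYMS stood at -0.27, TOP2A at -0.26, BIRC5 at -0.20 and STMN1 at -0.16. None of these genes passed the test of the difference between the pair and the single comparison, which only EPB41L2 did. MELK, a mitotic kinase, stood at -0.36 between the pairs and -0.41 between the singles, and EZH2, the H3K27 methyltransferase of germinal-centre B cells, at -0.45 and -0.21, all short of the threshold. Without replicate 1 the pair values were -0.40 and -0.59. In the single comparison 29 of 39 G1/S genes and 40 of 44 G2 and mitosis genes lay below 0, with medians of -0.078 and -0.19. Across the 8270 genes the pair and single differences correlated at 0.132, at 0.174 without replicate 1 (8265 genes) and at 0.0658 with run as a block, which describes genes that are not independent replicates.

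The promoters of TYMS (chr18:657403-657702, plus strand) and TOP2A (chr17:40417847-40418146, minus strand), a called gene of each list in the single comparison and picked with its values known, show the letters that set the lists apart, with the same build, window and capitals as above.
TYMS: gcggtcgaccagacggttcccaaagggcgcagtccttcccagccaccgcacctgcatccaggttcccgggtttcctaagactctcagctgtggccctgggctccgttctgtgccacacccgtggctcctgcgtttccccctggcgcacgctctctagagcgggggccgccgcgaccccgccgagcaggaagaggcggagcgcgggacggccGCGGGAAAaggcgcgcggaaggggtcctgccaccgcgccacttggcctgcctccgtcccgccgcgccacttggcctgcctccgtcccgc
TOP2A: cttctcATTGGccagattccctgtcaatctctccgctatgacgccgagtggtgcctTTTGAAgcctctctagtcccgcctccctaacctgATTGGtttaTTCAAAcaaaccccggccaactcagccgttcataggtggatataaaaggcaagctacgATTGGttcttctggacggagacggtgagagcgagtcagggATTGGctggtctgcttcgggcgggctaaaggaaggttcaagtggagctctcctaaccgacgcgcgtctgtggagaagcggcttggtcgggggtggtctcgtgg
The TYMS window held 1 E2F match, and the TOP2A window 2 CHR and 4 CCAAT matches. Among the 34 G1/S genes with a promoter given, 18 held the E2F letters, 1 the CHR letters and 17 CCAAT. Among the 39 G2 and mitosis genes with one, 4 held the E2F letters, 26 the CHR letters and 30 CCAAT. For the 6770 tested genes with a promoter the shares were 6.041%, 10.22% and 38.55%. The lists were drawn up from known cell-cycle genes, so this describes the lists and not the response.

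Beyond the cell cycle, 19 further lists were described, and no member of them but HMGA1 passed the limma test with all 7 arrays. At an unadjusted p under 0.05 each held 0 to 2 higher and 0 to 4 lower members, where all genes gave 4.45% higher and 5.84% lower. The 4 lower ones were of 9 plasma-cell and of 22 MYC and ribosome biogenesis genes. Of 10 HMG chromatin proteins 9 were measured, with a median of 0.071. HMGB2, a DNA-bending relative of HMGA1, stood at 0.25 and HMGN3 at 0.16. A second, dimmer probe of HMGB2 had the opposite sign, -0.15, and -0.16 without replicate 1, and one of HMGN3 gave 0.11. The forkhead list, which also held the oxidoreductase gene FOXRED1, had 11 of 15 members measured, with a median of 0.10, FOXM1 leading at 0.17. The replication histones (6 of 17 measured) had a median of 0.040. Without replicate 1 the medians of these lists were 0.041, 0.093 and 0.064, HMGB2 stood at 0.38 and HMGN3 at 0.21.

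In the lists of B-cell function the medians ran from -0.21 for 9 plasma-cell genes to 0.034 for 17 germinal-centre genes. PIM2, a survival kinase, stood at -0.26 and TNFRSF17, the BCMA receptor, at -0.22, while JCHAIN, the joining chain of secreted immunoglobulin, stood at 0.29. CD86, the costimulatory ligand, lay at 11.20, 10.91, 11.05 and 10.91 on siHMGA1+siTFDP1 replicates 1, 2, 3 and 4 against 11.46, 11.50 and 11.13, overlapping, and differed by -0.34 (adjusted p = 0.232). Dimmer probes of CD86, also above background, did not share that difference: they gave -0.016 and 0.12, and without replicate 1 0.0035 and 0.17. MHC class II genes had a median of -0.040, with HLA-DMA, the peptide exchange catalyst, at -0.34 and the invariant chain CD74 at -0.24. Against the shared control the class II median was 0.084 in siHMGA1+siTFDP1 and 0.18 in siHMGA1+siFOXM1. Genes of the B-cell receptor path had a median of 0.016, with the phosphatase PTPN6 at -0.26, the kinase BTK at 0.26 and MS4A1 (CD20) at 0.24, and the 11 genes of B-cell activation had one of -0.011. The PTPN6 probe passed the background line on 1 of the 4 siHMGA1+siTFDP1 arrays, so the size of its difference was not measured. Without replicate 1 the medians were -0.23 for plasma-cell, 0.033 for germinal-centre, -0.018 for class II, 0.029 for B-cell receptor and -0.053 for activation genes. PIM2 then stood at -0.24, TNFRSF17 at -0.29, JCHAIN at 0.34 and CD86 at -0.40. HLA-DMA stood at -0.42, CD74 at -0.32, PTPN6 at -0.24, BTK at 0.34 and MS4A1 at 0.30.

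In the lists of survival and stress, BCL2L11, which encodes the pro-apoptotic protein BIM, was lower without overlap between the groups, short of the threshold (adjusted p = 0.232). Its probe was above background on 7 of 44 arrays, 0 of them siHMGA1+siTFDP1, so the size of the difference was not measured. PMAIP1, encoding NOXA, stood at 0.28 and MCL1, the survival protein NOXA binds, at 0.20. Dimmer probes of PMAIP1 and MCL1 gave 0.16 and 0.014 in turn. The list of 13 measured family members had a median of 0.043. The medians were 0.024 for the unfolded protein response, -0.0061 for heat shock, -0.059 for interferon, -0.046 for p53 targets, -0.072 for immediate early genes and -0.00039 for the amino acid response. Without replicate 1 they were -0.0070, 0.028, -0.067, -0.027, -0.067 and -0.012 in turn, and -0.0035 for the BCL2 family, with PMAIP1 at 0.34 and MCL1 at 0.31.

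In metabolism and growth, the 25 glycolysis and hypoxia genes had a median of -0.020 between the pairs, with HK2, a hexokinase, at 0.33. Beside the shared control their median was 0.17 in siHMGA1+siTFDP1 (2 of 25 below 0) and 0.20 in siHMGA1+siFOXM1 (4 of 25). The 21 genes of oxidative phosphorylation had a median of -0.037, the 17 of cholesterol and lipid synthesis -0.015 and the 22 of MYC and ribosome biogenesis -0.072. FASN, the fatty acid synthase, lay at 11.80, 11.25, 11.20 and 11.30 on siHMGA1+siTFDP1 replicates 1, 2, 3 and 4 against 12.22, 12.08 and 11.34. The array of siHMGA1+siFOXM1 from run 3 lay with the siHMGA1+siTFDP1 arrays of the later runs, and FASN differed by -0.49 (adjusted p = 0.366), by -0.26 with run as a block and by -0.35 and -0.092 within runs 1 and 3. Without replicate 1 FASN differed by -0.63 and HK2 by 0.37, and the medians were -0.020 for glycolysis and hypoxia, -0.057 for oxidative phosphorylation, -0.018 for lipid synthesis and -0.011 for MYC and ribosome biogenesis.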

How the data were processed

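RNA of 45 SUDHL6 samples was measured on Illumina bead arrays, and groups and replicate numbers were taken from the titles. The members and gene lists were chosen with earlier results of these data known. The authors deposited log2 values for 45013 probes, between 6.28 and 16.28. How background and normalization were handled, and which log transform was used, is not given in the sources. Small differences near the scale's floor may therefore be compressed. The deposited raw table was not used: its 90 columns of intensity and detection p-value could not be tied to samples by label. Through the platform annotation 28746 probes had 1 gene symbol, 8 had several and 16259 had none.

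Probes at least 0.5 above the array median on 3 or more arrays were kept, the one with the highest mean per gene. One mean per group was fitted with limma 3.58.1 in R 4.3.3 to 44 arrays (lmFit, eBayes, two-sided, Benjamini-Hochberg over all genes). The array of siTFDP1+siATF5 replicate 3 was left out, since it correlated with the others at a median of 0.694 and on it 44.5% of probes were above background, against 24.2% to 30.6% on the others. The fit was tested on simulated data with independent noise and the same spread in every group. Those data held no runs and no array that goes against its label, so that test does not cover these features. The number of arrays limits the precision.

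Named were the 3 targets, up to 10 genes in each direction that passed without overlap (filled by smallest p), up to 3 members of each of the 22 lists by smallest p, and the 3 genes of smallest p in the single comparison and in the difference of the differences. Other names are list members, leading genes against the control, or marked in the text as chosen later. Alternatives were other arrays in the fit, filters, normalizations, probe rules, weights, blocks and left-out replicates. Promoters came from RefSeq.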

Additional observations from a re-analysis of the deposited data

Results flagged for a closer look

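In 109 sets of 4 siHMGA1+siTFDP1 values (named genes and list means among them), 15 had a highest or lowest array whose gap to the next exceeded the critical share for 4 values, and in 13 of them that array was the library labelled replicate 1. Chance marks about 1 in 20 sets, and the sets share arrays. On replicate 1, CD74 lay at 14.17, TNFRSF17 at 9.97, UQCRC1 at 10.39, COX4I1 at 13.27, TYMS at 10.63 and HSPA4 at 11.09, each above the other 3 arrays. KCTD18 lay at 7.99, HSPA1B at 8.45 and LMO2 at 11.66, each below them. The mean levels of 4 lists stood apart there as well: 9.73 for the G2 and mitosis genes, 9.31 for B-cell activation, 10.11 for plasma-cell genes and 11.74 for oxidative phosphorylation. TOP2A stood apart on replicate 3 (11.07) and the germinal-centre list on replicate 2 (10.52). HMGA1 on replicate 1 (11.27) had a gap of 0.822 of the range and fell just short.

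The difference between the pairs departed from that between the single silencings for EPB41L2, by -0.79 (limma adjusted p = 0.0121), on a probe near the lower limit of the scale. That probe was above background on 4 of 44 arrays, 2 of them siHMGA1+siFOXM1 and 0 of them siHMGA1+siTFDP1, siTFDP1 alone or siFOXM1 alone. The pair difference is thus one against background, the single difference lies within background, and the departure is no measured size.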

How the results depend on the processing

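Of 1793 values of 83 named genes under the alternatives 1765 kept their direction, and 25 of the 83 genes had at least 1 reversal. Most of these genes were picked by p or change in the main fit, and the alternatives reuse the same arrays. Keeping the direction was thus likely from the start, and nothing is read from the count. The count of genes between the pairs was 0 with all 45 arrays, with only the 7 arrays and with the first set alone (chosen after seeing the data), 0 within run 3, 18 within run 1, 1 with the strict filter, 2 after quantile normalization, 1 with run as a block and without replicate 1 (also chosen after seeing the data), and 0 to 267 when single replicates were left out. At an unadjusted p under 0.05 the settings with 0 calls held 300, 484, 586 and 159 genes. Deviations of same-numbered arrays from their group means correlated at 0.38, -0.06 and 0.34 for replicates 1, 2 and 3. Replicates 1 both lay in run 1 and replicates 3 both in run 3, while replicates 2 lay in different runs. Whether the replicate numbers pair the arrays was not tested. The replicate block gave 6 genes, all 4 main ones among them.

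HMGA1 missed the threshold at 0.58 with 45 arrays, 7 arrays, the first set alone, no filter, the strict filter and quantile normalization, at 0.55 with the share of bright probes as covariate, 0.47 with array weights, 0.39 within run 3, and 0.41 with run as a block and without replicate 1. It also missed it without siHMGA1+siFOXM1 replicate 1 or 2 or siHMGA1+siTFDP1 replicate 1 or 2, and passed without siHMGA1+siFOXM1 replicate 3 or siHMGA1+siTFDP1 replicate 3 or 4. Over left-out replicates it ranged from 0.42 to 0.65. TFDP1 missed it at -0.62 with 45 arrays, 7 arrays and the first set alone, at -0.41 within run 3, and at -0.56 without siHMGA1+siFOXM1 replicate 2 (range over left-out replicates -0.71 to -0.50). The G2 and mitosis median was 0.040 within run 1, and the G1/S median -0.033 within run 3 and -0.029 without a filter.

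Counts for siHMGA1+siTFDP1 against the doubled control were 0 with 45 arrays, its own groups, the first set, the replicate block, run with replicate 1 left out and within runs 2 and 3, 3 with run as a block or array weights, and 0 to 1 over left-out replicates. For siHMGA1+siFOXM1 they were 0 with 45 arrays, 2 with run as a block and 1 to 60. Between the singles they were 1 with 45 arrays or the 6 alone, 3 with the first set, 10 with run as a block or no filter, 20 and 2 within runs 1 and 2, 8 with the covariate, 17 with weights, and 1 to 31. For the difference of the differences they were 0 with 45 arrays, its own groups, the strict filter, quantile normalization, the first set, and run with replicate 1 left out, 2 within run 1 or with weights, and 0 to 15.

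Signs turned as follows, none past the threshold. Within run 1, TK1 stood at 0.082, PSAT1 at 0.043, NSDHL at 0.071, HSPA1B at -0.14, OAS2 at 0.061, POU2AF1 at 0.0081, LMO2 at -0.090, MCL1 at -0.094, UQCRC1 at 0.0095 and TYMS at 0.047. Within run 3, CDKN1B stood at -0.073, HMGN3 at -0.19, FOXJ2 at 0.11, H2BC12 at -0.11, HSPA1A at -0.060, HSPA4 at -0.33, OAS1 at 0.037, TP53I3 at 0.0096, MYBL1 at -0.12, LTA at -0.047, BTK at -0.043, MS4A1 at -0.033, PMAIP1 at -0.13 and MYC at 0.22. With run as a block and without replicate 1, HSPA4 stood at -0.035 and LTA at -0.027. Without siHMGA1+siFOXM1 replicate 1, HMGN3 stood at -0.036 (to 0.34 over left-out replicates) and XAF1 at -0.011 (to 0.21). TFDP1 in siHMGA1+siFOXM1 against the control stood at 0.039 without siNT4+siNT4 replicate 2 and 0.040 without siHMGA1+siFOXM1 replicate 3 (from -0.069 over left-out replicates), 0.017 with the replicate block and 0.071 with run as a block. HMGA1 between the singles stood at -0.17 within run 2, and TFDP1 in the difference of the differences at -0.032 within run 1. The cause was not tested. Background correction of the raw intensities and chip as a block were not run, since no label ties those columns to samples.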
